A study of Mus musculus with 2 samples.

Results

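Promoters with few CpG sites that lay in open chromatin were described in mouse T-helper 1 (Th1) cells. Of 21938 protein-coding genes of the GENCODE M21 annotation on chromosomes 1 to 19, X and Y, 5887 were CpG-poor. A gene counted as CpG-poor when the highest CpG observed over expected of any of its annotated starts, taken over 500 bp on either side in the mm10 sequence, was below 0.3. CpG observed over expected is the number of CpG dinucleotides divided by the number that the C and G content alone would give. Regions of open chromatin that overlapped between the replicates by at least 1 bp were joined into shared regions. An open promoter was a shared region within 1 kb of any start of the gene. The region of 1 replicate alone could lie farther away, as for replicate 2 at Cd163. By this rule 910 CpG-poor genes, 15.5% of 5887, had an open promoter, through 1077 of the 84380 shared regions. With CpG content taken as the highest of sliding windows of 200 bp, 1287 genes were CpG-poor and 96 of them (7.46%) had an open promoter, through 101 regions. By the first rule, 13542 of the other 16051 coding genes had an open promoter (84.4%), and among all 21938 coding genes 14452 did (65.9%).

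The study assayed Th1 primary cells of C57BL/6NJ mice by ATAC-seq, which cuts and tags accessible DNA with a transposase. It has 1 group of 2 biological replicates and no control group, so nothing here compares conditions. Both biosamples are listed under the same donor identifier, sex was not collected, age is unknown, and separate animals are not stated. A time of 96 hours is written in the region names beside the terms ASTARR and insert, whose meaning is not stated, and the term open follows the labelled assay.

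In mammals the cytosine of a CpG is often methylated, and methylated CpG sites are lost over evolution by deamination. CpG islands, which escape this, mark the promoters of most widely expressed genes. Promoters poor in CpG are typical of genes expressed in few cell types, such as cytokines, lineage receptors and olfactory receptors, and are known for depending on factors specific to a cell type. Th1 cells are CD4 T cells that develop under interleukin 12 and interferon gamma and make interferon gamma to direct the defence against intracellular microbes.

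The sequences just upstream of 7 open CpG-poor promoters are shown. Their genes encode cytokines, receptors and a cytotoxic protease, and the strongest region of each covers a start. They are among the first 8 by mean signal on the T cell, Th1, cytokine, homing and natural killer (NK) cell lists for which 200 bases upstream of a covered start overlap no annotated exon. Each is written 5′ to 3′ on the strand of the gene, from position -200 to position -1 relative to the start, and was read from the mm10 genome (GRCm38.p6). Capitals mark matches, on either strand, to the core letters of RUNX factors (TGTGGT), ETS factors (AGGAAG), AP-1 (TGANTCA) and T-box factors (GGTGTGA), and to the TATA box (TATAAA, on the strand of the gene). The stretches lie at chr9:123806275-123806474, plus strand (Cxcr6), chr9:123968693-123968892, minus strand (Ccr1), chr11:46454735-46454934, plus strand (Havcr2), chr14:56262261-56262460, minus strand (Gzmb), chr9:50554627-50554826, plus strand (Il18), chr3:27316828-27317027, plus strand (Tnfsf10) and chr1:40515162-40515361, plus strand (Il18rap).
Cxcr6: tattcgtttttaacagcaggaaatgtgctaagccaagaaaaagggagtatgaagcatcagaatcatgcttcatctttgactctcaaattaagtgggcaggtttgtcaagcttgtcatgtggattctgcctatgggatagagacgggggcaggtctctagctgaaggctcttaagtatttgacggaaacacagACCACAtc
Ccr1: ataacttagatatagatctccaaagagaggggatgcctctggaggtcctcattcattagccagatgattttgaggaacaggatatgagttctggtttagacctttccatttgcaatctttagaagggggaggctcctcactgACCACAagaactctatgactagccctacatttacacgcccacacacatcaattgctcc
Havcr2: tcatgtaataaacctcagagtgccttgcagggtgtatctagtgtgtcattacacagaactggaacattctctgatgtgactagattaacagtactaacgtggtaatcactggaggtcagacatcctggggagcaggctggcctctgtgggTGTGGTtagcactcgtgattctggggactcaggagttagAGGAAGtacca
Gzmb: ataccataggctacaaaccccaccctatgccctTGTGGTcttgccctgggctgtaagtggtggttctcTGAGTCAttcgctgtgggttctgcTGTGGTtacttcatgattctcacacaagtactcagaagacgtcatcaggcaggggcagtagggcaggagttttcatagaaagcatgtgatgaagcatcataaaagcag
Il18: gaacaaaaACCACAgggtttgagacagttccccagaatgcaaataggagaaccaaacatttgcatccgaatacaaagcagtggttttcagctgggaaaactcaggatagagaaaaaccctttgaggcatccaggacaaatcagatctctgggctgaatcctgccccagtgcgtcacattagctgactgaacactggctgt
Tnfsf10: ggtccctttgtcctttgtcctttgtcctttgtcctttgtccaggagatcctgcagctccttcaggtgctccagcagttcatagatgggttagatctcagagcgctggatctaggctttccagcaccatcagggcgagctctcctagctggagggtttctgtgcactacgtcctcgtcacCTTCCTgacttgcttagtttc
Il18rap: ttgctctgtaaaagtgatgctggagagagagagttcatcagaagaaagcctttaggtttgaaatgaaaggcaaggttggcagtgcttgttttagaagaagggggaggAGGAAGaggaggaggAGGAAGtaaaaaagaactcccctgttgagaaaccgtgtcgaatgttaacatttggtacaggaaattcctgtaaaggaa

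The 7 stretches held between 1 CpG site, at Ccr1, and 4, at Tnfsf10, in 200 bases each. All 200 bases of each lay inside the shared region. RUNX letters were found upstream of Cxcr6 at -8 to -3, Ccr1 at -58 to -53, Havcr2 at -50 to -45 and Il18 at -192 to -187, and at 2 places upstream of Gzmb, at -167 to -162 and -108 to -103. Gzmb also held the AP-1 letters at -132 to -126, with no overlap with its RUNX letters. ETS letters were found upstream of Havcr2 and Tnfsf10 and at 2 places upstream of Il18rap. None of the 7 held the T-box or TATA letters. In the 200 bases before the outermost start of every coding gene, the RUNX letters were found in 170 of the 910 CpG-poor genes with an open promoter (18.7%), in 14.4% of the CpG-poor genes without one, in 8.75% of the other coding genes and in 10.5% of all coding genes. For the ETS letters the shares were 36.6%, 26.8%, 22.8% and 24.3%, and for the AP-1 letters 9.23%, 8.30%, 3.48% and 4.81%. The T-box letters were found in 2.53%, 3.23%, 2.27% and 2.498%, in the same order. A match describes the letters only, and binding was not measured.

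The share of genes with an open promoter was low throughout the CpG-poor range and was higher in each higher class of CpG content. Of 1084 genes under 0.1, 55 had an open promoter (5.07%), of 2713 genes from 0.1 to 0.2, 315 did (11.6%), and of 2090 genes from 0.2 to 0.3, 540 did (25.8%). Above the threshold the share was 41.5% from 0.3 to 0.4, 58.8% from 0.4 to 0.5 and 80.4% from 0.5 to 0.6, and it reached 96.1% at 0.8 or more. Over genes, the 95% exact (Clopper-Pearson) interval was 14.5 to 16.4% for CpG-poor genes and 83.8 to 84.9% for other coding genes. These intervals cover counting error over genes only. With the list of replicate 1 alone, 991 CpG-poor genes (16.8%) had an open promoter, and with the list of replicate 2 alone 933 did (15.8%). The difference between the CpG-poor and the other genes was thus many times the difference between replicates, in the counts as in the plot of shares by CpG content.

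**Figure D1:**
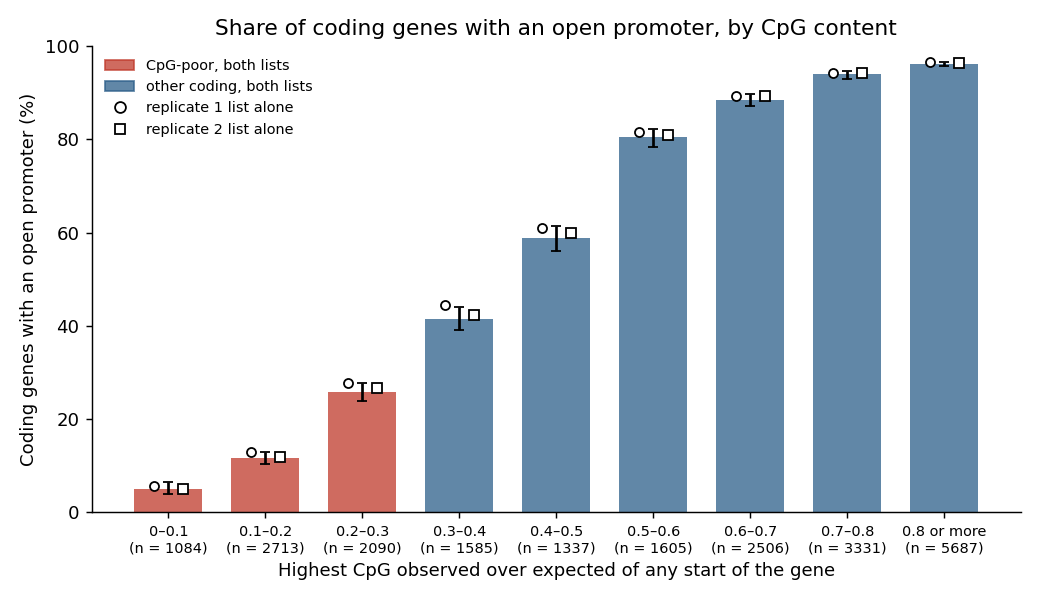
Percent of coding genes with an open promoter by class of highest CpG observed over expected, for the CpG-poor classes (red) and the other classes (blue). Bars show the share for regions found in both replicates with 95% exact intervals over genes, the circle and square show the list of each replicate alone, and the share was 5.07% in the lowest class and 96.1% in the highest.

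The threshold cuts a gradient. From 0.28 to 0.3, 122 of 363 genes had an open promoter (33.6%), and from 0.3 to 0.32, 140 of 354 did (39.5%). The 5 genes just inside the threshold were Fer1l5, Gm28710, Gpr183, Capns2 and Ascl3. Of these, Gpr183, a receptor for oxysterols that guides lymphocyte positioning, had an open promoter, with a signal of 4.40 in replicate 1 and 4.42 in replicate 2. The 5 genes just outside were Pnoc, Kcnu1, Zfp937, 1700019A02Rik and Naaladl1, of which Kcnu1 (5.95 in replicate 1, 4.61 in replicate 2) and Zfp937 (7.06 and 5.07, in the same order) had an open promoter.

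Many CpG-poor genes without an open promoter were sensory receptor or predicted genes. The 1448 CpG-poor sensory receptor genes (olfactory, vomeronasal, bitter taste and trace amine) had 31 open promoters (2.14%), and the 1232 CpG-poor predicted genes, those with a Gm number or a Rik clone name, had 101 (8.20%). Without both classes, 778 of 3207 CpG-poor genes had an open promoter (24.3%), against 86.2% of 15128 other coding genes. CpG-poor genes with 1 annotated start had an open promoter in 9.91% of cases and those with 4 or more starts in 39.2%, against 65.5% and 92.0% of the other genes with as many starts. On the X chromosome 30 of 315 CpG-poor genes had an open promoter (9.52%), and on the Y chromosome 0 of 146 CpG-poor and 0 of 37 other coding genes did. In replicate 1 alone 4 of the 37 had a region near a start. Sex was not collected and most Y genes were at 0 in both classes, so little or no Y DNA and closed promoters cannot be told apart there.

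Open CpG-poor promoters had a lower median signal and a smaller median width than other coding promoters. The median signal value, the enrichment of a region as the authors' caller gave it, was 6.71 in replicate 1 and 6.45 in replicate 2 over the 1077 CpG-poor promoter regions, against 9.74 in replicate 1 and 9.57 in replicate 2 over 16897 other coding promoter regions. The 62842 shared regions away from any annotated start had medians of 6.37 in replicate 1 and 6.15 in replicate 2. The middle 50% of CpG-poor promoter regions lay between 4.29 and 9.97 in replicate 1 and between 4.15 and 9.68 in replicate 2, and that of other coding promoter regions between 6.07 and 13.2 in replicate 1 and between 5.93 and 12.9 in replicate 2. In bulk data a region open in few cells and a region weakly open in all cells cannot be told apart. The classes overlapped widely, while within each class the replicates' medians differed by less than 0.3. The median −log10 q was 48.8 in replicate 1 and 40.3 in replicate 2 for CpG-poor promoter regions, against 149 and 126 for other coding promoter regions, in the same order.

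**Figure D2:**
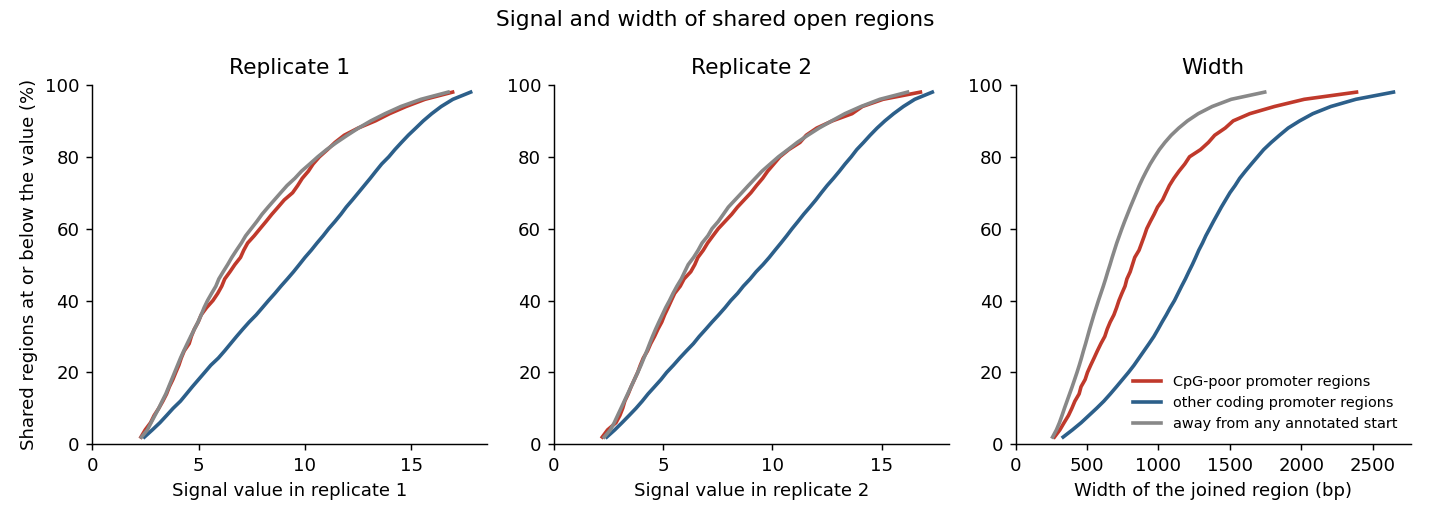
Cumulative distributions of signal value in replicate 1, signal value in replicate 2 and width in bp, for shared regions at CpG-poor promoters (red), at other coding promoters (blue) and away from any annotated start (grey), drawn from percent 2 to 98. The red curve of signal runs close to the grey one and left of the blue one in both replicates, and the red curve of width runs between the others.

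The median width of the joined regions was 818 bp at CpG-poor promoters, 1237 bp at other coding promoters and 661 bp away from any start. In the single lists the medians were 685 bp in replicate 1 and 724.5 bp in replicate 2 for CpG-poor promoters, against 1136 bp in replicate 1 and 1159 bp in replicate 2 for other coding promoters. Among all 14452 coding genes with an open promoter, ranked by the mean signal of their strongest region, the median CpG-poor gene stood at percentile 20.3. In the top 10% of that ranking were 38 of the 910 CpG-poor genes (4.18%), and 55.9% of them were in the lowest quartile. The replicates gave nearly the same signal at each region: 98.7% of the 1077 regions differed by less than 1.5-fold, and 1 region differed by more than 2-fold. The standard deviation of the log2 ratio of replicate 1 to replicate 2 was 0.20 at CpG-poor promoters and 0.16 at other coding promoters. The position of greatest signal within a region, its summit, lay within 100 bp in both lists for 88.3% of CpG-poor promoter regions and 85.8% of other coding promoter regions.

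Fewer of the regions called near CpG-poor starts were shared, in percent, than of those near other coding starts. Of 1208 regions of replicate 1 near a CpG-poor start, 88.3% overlapped a region of replicate 2, against 94.8% of 17929 near other coding starts. Of 1114 regions of replicate 2 near a CpG-poor start, 95.4% overlapped a region of replicate 1, against 97.4% of 17367 near other coding starts. The unshared regions were weak, with a median signal of 2.84 for 141 in replicate 1 and 3.07 for 51 in replicate 2. The strongest unshared promoter regions were those of Ifi209 (7.20, replicate 1), a DNA-sensing family gene induced by interferon, of Gm17482 (6.37, replicate 1), of Itln1 (5.53, replicate 2), an intestinal lectin, of Mgat4e (5.30, replicate 2) and of Trp53tg5 (5.28, replicate 1).

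A smaller share of regions at CpG-poor promoters than at other coding promoters was centred on the start. Of the 1077 regions, 581 covered a CpG-poor start (53.9%, exact interval 50.9 to 56.96%), against 81.7% of other coding promoter regions. The summit lay within 100 bp of the nearest start in 28.6% of CpG-poor promoter regions and in 51.1% of other coding promoter regions, and within 200 bp in 38.3% and 66.1%, in the same order. It lay more than 200 bp upstream in 32.6% and more than 200 bp downstream in 29.1% of CpG-poor promoter regions, against 15.7% upstream and 18.2% downstream for the others. The median distance from summit to start was 379 bp for CpG-poor promoter regions and 96 bp for other coding promoter regions. Counting only regions that cover a start of the gene itself, 548 CpG-poor genes (9.31%) and 13052 other coding genes (81.3%) were open there.

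**Figure D3:**
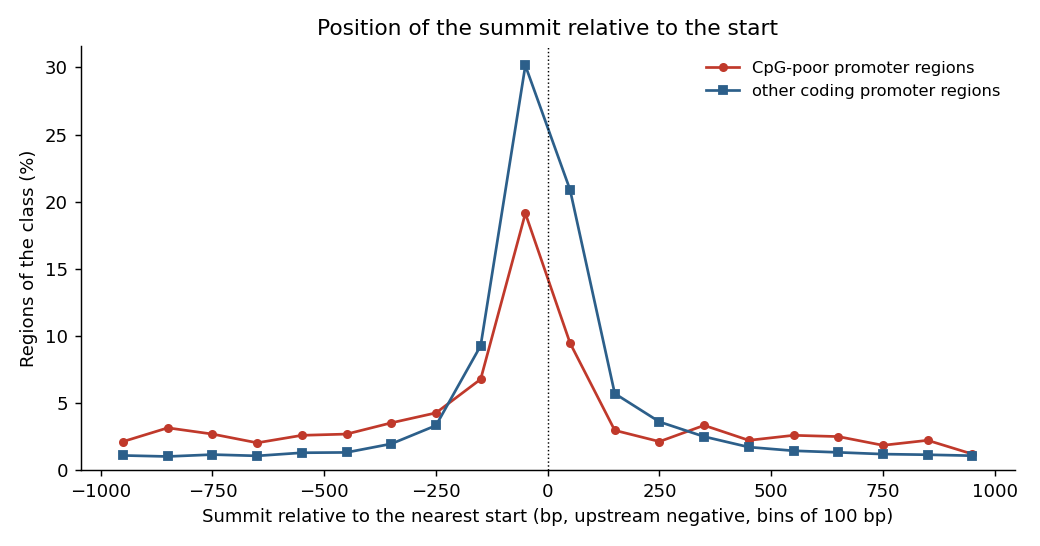
Percent of regions by position of the summit relative to the nearest start of the class, in bins of 100 bp, for CpG-poor promoter regions (red) and other coding promoter regions (blue). Both classes peak in the bin just upstream of the start, at 19.1% for CpG-poor and 30.1% for other coding promoter regions, and the red curve is higher in the bins more than 200 bp upstream.

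The regions that covered a start had higher median signal and width than those that did not. The 581 covering a CpG-poor start had median signals of 7.25 in replicate 1 and 6.88 in replicate 2 and a median width of 916 bp. The 496 that covered none had medians of 6.04 in replicate 1 and 5.69 in replicate 2 and 703 bp. At other coding promoters the 13812 regions over a start had medians of 10.6 in replicate 1 and 10.4 in replicate 2. The 3085 others had 5.40 and 5.32, in the same order, and a median width of 682 bp. Among regions that covered no start, those at CpG-poor promoters thus had slightly higher medians of signal and width than those at other coding promoters.

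The regions themselves were mostly poor in CpG, which the rule largely sets for regions over a start. Of the 1077 CpG-poor promoter regions, 83.3% had a CpG observed over expected below 0.3 over their own length and 30 (2.79%) had 0.6 or more, against 19.99% and 54.3% of other coding promoter regions. Over a start, 92.4% of CpG-poor and 9.58% of other coding promoter regions were below 0.3. Where no start was covered, 72.6% of CpG-poor and 66.6% of other coding promoter regions were. Away from any start 80.7% were below 0.3. In the 201 bp around the summit the median number of CpG sites was 3 at CpG-poor promoters, 14 at other coding promoters and 2 away from starts, and 136 CpG-poor promoter regions (12.6%) had none there. Of all 1077 regions, 56 were also within 1 kb of a start of a CpG-richer coding gene. These had medians of 8.16 in replicate 1, 8.15 in replicate 2 and 1073.5 bp, and for 44 of the 910 genes every shared region was of this kind. Of all 1077 regions, 53 also lay near the start of a noncoding gene.

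The letters under the summits differed in the same way between the classes. Each motif was searched on both strands in 201 bp around the summit. The GC box of SP factors (GGGCGG) was found in 11.98% of CpG-poor promoter regions, 46.7% of other coding promoter regions, 5.23% of regions away from starts and 13.96% of all shared regions. The CpG-holding ETS letters (CCGGAA) were found in 4.83%, 17.6%, 3.19% and 6.23%, in that order. GGGCGG and CCGGAA each hold a CpG, so their low share at CpG-poor promoters is partly set by the rule that chose the class. The RUNX letters (TGTGGT) went the other way, with 25.5% at CpG-poor promoters, 11.6% at other coding promoters, 25.7% away from starts and 22.8% overall. The AP-1 letters (TGANTCA) were found in 22.7%, 9.33%, 30.8% and 26.0%, and the letters of interferon regulatory factors (AANNGAAA) in 26.6%, 11.9%, 26.2% and 23.2%. The classes differ in base composition, with a median GC content around the summit of 50.7% at CpG-poor promoters, 62.7% at other coding promoters and 47.8% away from starts, and its part in these shares was not tested. TATAAA at -40 to -20 of a start was found in 47 of 910 CpG-poor genes with an open promoter (5.16%), in 7.59% of the 4977 without one, in 2.98% of other coding genes with an open promoter and in 4.33% of all coding genes.

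CpG-poor genes with an open promoter lay in open surroundings. Within the gene and 20 kb on either side, leaving out the regions at its own promoter, they had a median of 4 shared regions, against 0 for CpG-poor genes without an open promoter and 5 for other coding genes with one. No such region was found for 5.71% of the CpG-poor genes with an open promoter and for 65.4% of those without. The window grows with the gene. Median gene length was 11.9 kb for CpG-poor genes with an open promoter, 6.75 kb for those without and 24.5 kb for other coding genes with one. Among genes of 5 to 50 kb the median numbers of regions were 4, 0 and 4, in the same order. The median distance to the nearest start of a CpG-richer coding gene was 18.3 kb for CpG-poor genes with an open promoter and 92.5 kb for those without. The GC content around the starts had a median of 50.3% in the CpG-poor genes with an open promoter, 43.1% in those without and 55.2% in the other coding genes.

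The CpG-poor genes with the strongest promoters came from many families, and of the 15 strongest Cxcr6 alone was on the T cell, cytokine, NK and interferon lists. Trim12c (ENSMUSG00000057143.15), of the Trim5 group of antiviral ubiquitin ligases, ranked first by mean signal. It had 19.7 in replicate 1 and 20.9 in replicate 2, in a region at chr7:104352926-104354076 that covers a start. Prss46, a serine protease gene, had 20.1 in replicate 1 and 19.6 in replicate 2 (chr9:110849077-110849777). Pilrb1, an activating paired immunoglobulin-like receptor, had 20.3 in replicate 1 and 18.7 in replicate 2 (chr5:137856643-137857688). Each stood above percentile 99 of all coding genes with an open promoter. They were followed by Gm10799, Ceacam2 (a cell adhesion molecule), Cndp1 (a dipeptidase), Nlrp1b (an inflammasome sensor), Il17b (a cytokine), Cyp4f37 (a cytochrome P450), Zfp950 (a zinc finger protein), 1700017N19Rik, Nckap1l (a blood cell actin regulator), Gm49027, Pinlyp and Cxcr6. Of these 15, the regions of Gm10799, 1700017N19Rik, Gm49027 and Pinlyp were also within 1 kb of a start of a CpG-richer gene, and 9 covered a start of the named gene. Nckap1l had 17.8 in replicate 1 and 17.4 in replicate 2, and Nlrp1b had 19.2 and 17.6, in the same order.

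By −log10 q the order differed. Gm10647 led with 796 in replicate 1 and 713 in replicate 2, in a region near a CpG-richer start whose own CpG observed over expected was 0.66. Next came 4930442H23Rik, Angptl6, Podnl1, Gpr65, Sdhaf1, Zfp950, Vtn, Gimap7 and Mpp4. Regions near a CpG-richer coding start among these included those of Gimap7 and Sdhaf1. The region of Sdhaf1 covered no CpG-poor start and had a CpG observed over expected of 0.76 over its own length. Gpr65, a proton-sensing receptor of lymphocytes, had 491 in replicate 1 and 440 in replicate 2 with signals of 9.86 and 9.63, in a region 2755 bp wide. Gimap7, a GTPase of immunity-associated proteins found in lymphocytes, had 449 in replicate 1 and 373 in replicate 2. The widest regions were at Gm8369 (3171 bp), Fermt3 (2983 bp, kindlin-3, which activates integrins in blood cells), Gbp2 (2899 bp, a guanylate-binding protein), Ptpn7 (2895 bp, a phosphatase of blood cells) and Lsp1 (2844 bp, a leukocyte actin-binding protein). None of the 5 widest was among the strongest: their signals were between 5.91 and 10.4 in the 2 replicates.

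The weakest open promoters were those of Gm10643 (1.83 in replicate 1, 1.76 in replicate 2), Nanos3 (2.36 and 1.84), Slc25a34 (2.15 and 2.12), Gm49321 (2.36 and 2.18) and Cd4 (2.29 and 2.33), in the same order of replicates. Cd4, the co-receptor that defines helper T cells, thus had 1 of the 5 lowest signals of all open CpG-poor promoters, although its region was 992 bp wide, covered a start (chr6:124888035-124889026) and had a −log10 q of 18.3 in replicate 1 and 18.6 in replicate 2. Signal ranks regions by enrichment and is not a level of expression.

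Most open CpG-poor genes had a single region. A total of 750 genes had 1 shared region within 1 kb of a start, 136 had 2 and 24 had 3 or more. Gm8369 and Sla had 5 each, over 6 starts at Gm8369 and 5 at Sla. Sla encodes an adaptor that lowers T cell receptor levels, and its regions ranged in signal between 1.75 and 4.82 in replicate 1 and between 1.88 and 4.43 in replicate 2. Ikbke, Mndal, Lsp1 and Cd226 had 4 regions each. Most regions (1054 of 1077) belonged to 1 CpG-poor gene, 21 to 2 genes and 2 to 3 genes, so neighbouring genes can share a value: Igtp and Irgm2, a pair of interferon-inducible GTPases, share 1 region of 7.75 in replicate 1 and 7.54 in replicate 2.

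Of 15 CpG-poor genes on the T cell receptor and co-receptor list, 14 had an open promoter, against 15.5% of all CpG-poor genes, and 20 of the list's 21 CpG-richer genes did. Lcp2, the adaptor SLP-76, had the highest mean signal over the replicates, with 10.4 in replicate 1 and 10.5 in replicate 2. By mean signal it was followed by the co-stimulatory receptor Cd28 (10.7 and 9.14) and the adaptor Sla2 (7.97 and 7.71). Next were Cd8b1, the beta chain of the CD8 co-receptor (7.32 and 8.14), and Cd7 (7.31 and 6.84), in the same order of replicates. Cd3g, a chain of the T cell receptor complex, had 6.93 in replicate 1 and 6.45 in replicate 2 in a region of 2651 bp. Ptprcap, Cd5, Sit1, Cd27, Trat1, Cd52, Cd53 and Cd4 lay between 2.29 and 6.33 in replicate 1 and between 2.33 and 6.49 in replicate 2. At Cd28 and Lcp2 the strongest region covered no start, with summits at -2162 bp and -662 bp from the nearest start. A weaker region of Cd28 (8.46 in replicate 1, 7.93 in replicate 2) covered a start, with its summit at -19 bp. Ptcra, the pre-T cell receptor alpha chain of thymocytes, had no region in either list.

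Of 15 CpG-poor genes on the Th1 list 14 had an open promoter, against 15.5% of all CpG-poor genes. All 15 of the list's CpG-richer genes had one. Cxcr6, the receptor for the chemokine CXCL16, had 17.5 in replicate 1 and 17.3 in replicate 2, with its summit 21 bp downstream of a start and the upstream stretch printed above inside its region. Xcl1, a chemokine of activated T cells, had 17.6 in replicate 1 and 13.9 in replicate 2, a wider gap than at any other gene of the list. Havcr2, the inhibitory receptor TIM-3, had 13.0 in replicate 1 and 13.1 in replicate 2, and Gzmb, the protease granzyme B, had 12.4 and 12.5, in the same order. Il2, the T cell growth factor, had 11.1 in replicate 1 and 11.5 in replicate 2, at a region that covered no start and had its summit at -2558 bp. Il18rap, a subunit of the receptor for interleukin 18, had 9.91 in replicate 1 and 10.04 in replicate 2, Fasl, the death ligand, 9.67 and 9.54, and Csf2, the cytokine GM-CSF, 9.04 and 9.75, in the same order of replicates. The chemokine Ccl3 had 6.71 in replicate 1 and 6.84 in replicate 2, and Nkg7, a protein of cytotoxic granules, had 5.70 and 5.25, in the same order. Ccl4, Il12rb1, a subunit of the receptor for interleukin 12, Ccl5 and Cxcr3, the receptor that homes Th1 cells to inflamed tissue, were weakest, with 3.57 to 5.09 in replicate 1 and 3.03 to 5.69 in replicate 2. Ly6c2 had no region in either list.

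**Figure D4:**
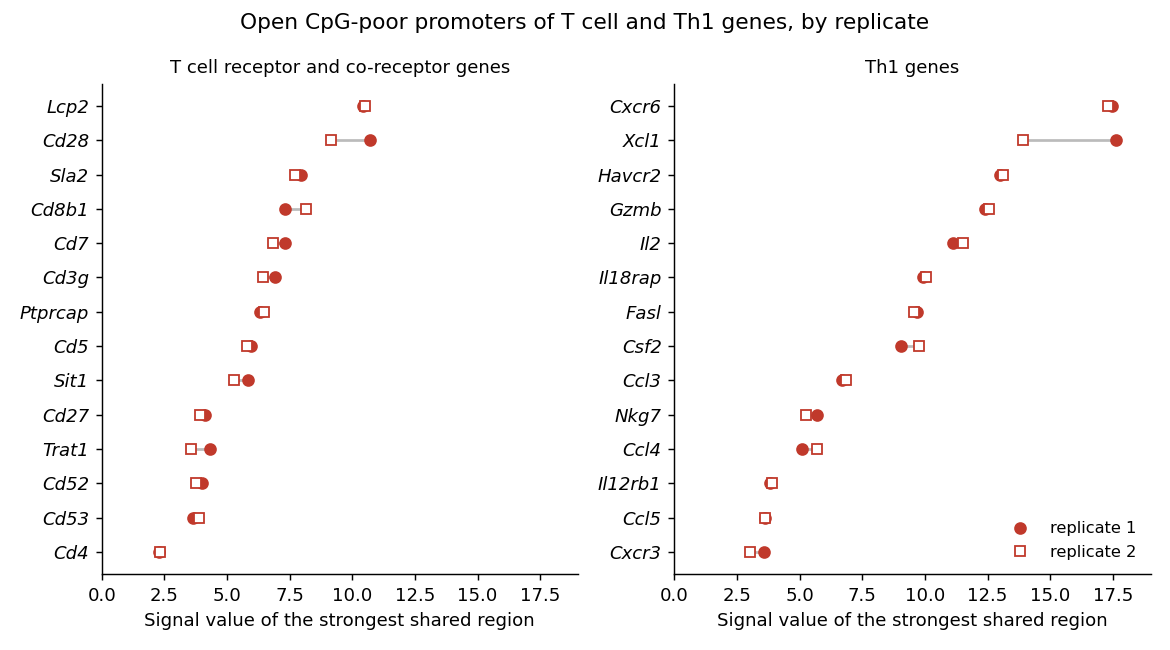
Signal value of the strongest shared region within 1 kb of a start, in replicate 1 (filled circles) and replicate 2 (open squares), for the 14 open CpG-poor genes of the T cell receptor and co-receptor list (left) and of the Th1 list (right), sorted by mean. The T cell genes run between 2.29 at Cd4 and 10.7 at Cd28, and the Th1 genes reach 17.6 at Xcl1.

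The promoters of other helper programmes were mixed. Of 19 CpG-poor genes on that list 11 had an open promoter, against 15.5% of all CpG-poor genes, and 14 of its 17 CpG-richer genes did. Those open were Ccr3 (15.1 in replicate 1, 15.9 in replicate 2), a receptor for eotaxins, Il17f (11.5 and 12.3), a Th17 cytokine, Ccr6 (10.1 and 10.2), Cxcr5 (7.03 and 9.36), Il21 (6.77 and 6.33), Ccr8 (6.64 and 5.90), Ebi3 (5.82 and 5.78), Il23r (4.80 and 5.53), Tnfrsf4 (4.00 and 4.36), Pdcd1 (3.59 and 3.53) and Tnfrsf18 (2.51 and 2.51), in the same order of replicates. The strongest regions of Ccr3, Il17f, Ccr6, Il21 and Il23r covered no start, while a weaker region of Il21 (4.72 in replicate 1, 4.41 in replicate 2) did. Among those without a shared region were the Th2 cytokines Il13, Il5 and Il9, the Th2 receptor Ptgdr2, the chemokine Ccl20, the integrin gene Itgae and Il10. Il9 and Il10 each had a region in replicate 1 alone.

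Of 45 CpG-poor chemokine and cytokine genes 21 had an open promoter, against 15.5% of all CpG-poor genes and 26 of the list's 35 CpG-richer genes. Beside the Th1 cytokines these included Il24 (13.8 in replicate 1, 13.7 in replicate 2), Il18 (13.1 and 11.8), Il11 (9.76 and 9.72), Csf3 (10.6 and 8.40) and Tnfsf10 (9.76 and 10.5), the death ligand TRAIL, and, at lower signal, Il3 (3.39 and 3.07) and Cd40lg (3.23 and 3.09), the T cell ligand of CD40, in the same order of replicates. Il12b, a chain of interleukin 12, had 8.31 in replicate 1 and 5.68 in replicate 2. Among the 24 without a shared region were the monocyte-attracting chemokines Ccl2, Ccl7, Ccl8 and Ccl12, the interleukin 1 genes Il1a and Il1b, Ccl17 and Ccl22, which attract CCR4-bearing cells, and Ifnb1, interferon beta.

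Of 21 CpG-poor chemokine receptor and homing genes 14 had an open promoter, against 15.5% of all CpG-poor genes. All 15 of the list's CpG-richer genes had one. Ccr1, a receptor for inflammatory chemokines, had a CpG observed over expected of 0.064 and a signal of 13.99 in replicate 1 and 13.2 in replicate 2. Ccr7, the receptor for lymph node homing, had 6.22 in replicate 1 and 6.00 in replicate 2, and Itgb2, the common chain of the leukocyte integrins, had 6.20 and 6.80, in the same order. No shared region was found for Cxcr2, Itgae, Ccr10, Gpr15, Cx3cr1, Xcr1 and Ccr2.

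Of 34 CpG-poor genes on the NK and cytotoxic granule list 15 had an open promoter, against 15.5% of all CpG-poor genes. Of the list's 8 CpG-richer genes 5 had one. The lectin receptor gene Klrb1c (NK1.1) had 18.3 in replicate 1 and 16.1 in replicate 2, at a region with its summit at -718 bp that covered no start. Klre1 had 10.5 in replicate 1 and 9.62 in replicate 2, Klrk1, the receptor NKG2D, had 10.3 and 9.19, and Cd226, an activating receptor, had 9.78 and 7.94, in the same order. Of the granzymes, Gzmb and Gzmm (2.80 in replicate 1, 2.68 in replicate 2) had an open promoter, Gzma had a region in replicate 1 alone, and Gzmc, Gzmd, Gzme, Gzmf and Gzmg had none in either list. Of the Ly49 genes on the list, Klra5 (3.46 in replicate 1, 3.23 in replicate 2) had an open promoter, and Klra1, Klra3, Klra4, Klra7, Klra8 and Klra9 had no shared region. Klra2, which is not on the list and was chosen after its values were seen, also had an open promoter, with 6.51 in replicate 1 and 7.37 in replicate 2.

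Interferon-inducible genes were open at 30 of 34 CpG-poor promoters, against 15.5% of all CpG-poor genes, and 15 of 16 CpG-richer ones were open. Their median CpG observed over expected, 0.13, was the lowest of the 10 lists. Ifi204, of the DNA-sensing p200 family, had 17.1 in both replicates, Ifit1, which binds viral RNA, had 16.8 in replicate 1 and 15.7 in replicate 2, and Xaf1, a proapoptotic factor, had 16.0 and 16.2, in the same order. Rsad2, the antiviral enzyme viperin, had 13.7 in replicate 1 and 13.9 in replicate 2, Zbp1, a sensor of Z-form nucleic acid, had 11.2 and 11.5, and Mx1, an antiviral GTPase, had 9.48 and 9.13, in the same order. Isg15, a ubiquitin-like modifier, had 3.83 in replicate 1 and 4.14 in replicate 2, and Oas3, which makes oligoadenylates, had 3.77 and 3.96, in the same order. In 26 of the 30 the strongest region covered a start. Without a shared region were Ifi207, Ifi209, Gbp4 and Oas2, of which Ifi209 and Oas2 had a region in replicate 1 alone.

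Markers of other cells are given beside the 15.5% of all CpG-poor genes with an open promoter. The share was 50% for B cell markers, 16.1% for myeloid and mast cell markers and 10.7% for markers of non-blood tissues, so that the last 2 were near that background. Of 12 CpG-poor B cell markers 6 had an open promoter (Cxcr5, Fcrl1, Blk, Fcer2a, Blnk and Cd79b), while Ms4a1, a marker that defines B cells, had no region in either list. Of 31 CpG-poor myeloid and mast cell markers 5 did (Itgax, Cd300lf, Cd163, Mrc1 and Cd68), while Csf1r, Adgre1, S100a8 and S100a9 had no region in either list. Of 28 CpG-poor markers of hepatocytes, epithelia and other tissues 3 did (Apoa1, Opn1sw and Ckm), while the insulin genes Ins1 and Ins2, the haemoglobin genes and Krt5 had none. Among these markers, Lyz1 (4.43), Lyz2 (2.91) and Itgam (2.91), all myeloid, had a region in replicate 1 alone. In replicate 2 alone, a region was found at the myeloid marker Fcgr1 (2.46), the B cell marker Cd180 (3.07) and the non-blood marker Wap (4.91). With the list of replicate 1 alone, 8 of the 31 myeloid and mast cell markers had an open promoter. Itgax, an integrin also found on some T cells, had 11.4 in replicate 1 and 11.5 in replicate 2, and Apoa1, an apolipoprotein of liver and gut, had 13.8 in both, at a region that covered no start and had its summit 1398 bp downstream of the nearest one. The strongest region of Ckm, muscle creatine kinase, also covered no start, lay near a CpG-richer coding start and had a CpG observed over expected of 0.71 over its own length.

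Over the union of the 7 T cell, cytokine, NK and interferon lists, 102 of 160 CpG-poor genes had an open promoter (63.8%), against 795 of 5659 CpG-poor genes on no list (14.05%), with 15.5% over all CpG-poor genes. Over the union of the 3 lists of other lineages, leaving out Cxcr5, Tyrobp and Ccr2, which are also on the 7 lists, it was 13 of 68 (19.1%). Within classes of CpG content, the share for the 7 lists and for genes on no list was 57.1% and 4.09% under 0.1, 56.5% and 10.6% from 0.1 to 0.2, and 71.4% and 23.9% from 0.2 to 0.3. Where they were open, the genes of the 7 lists had median signals of 7.21 in replicate 1 and 6.87 in replicate 2, against 7.53 and 7.16 for open CpG-poor genes on no list, in the same order. The lists were chosen with results of these data known and were not tested for enrichment.

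**Figure D5:**
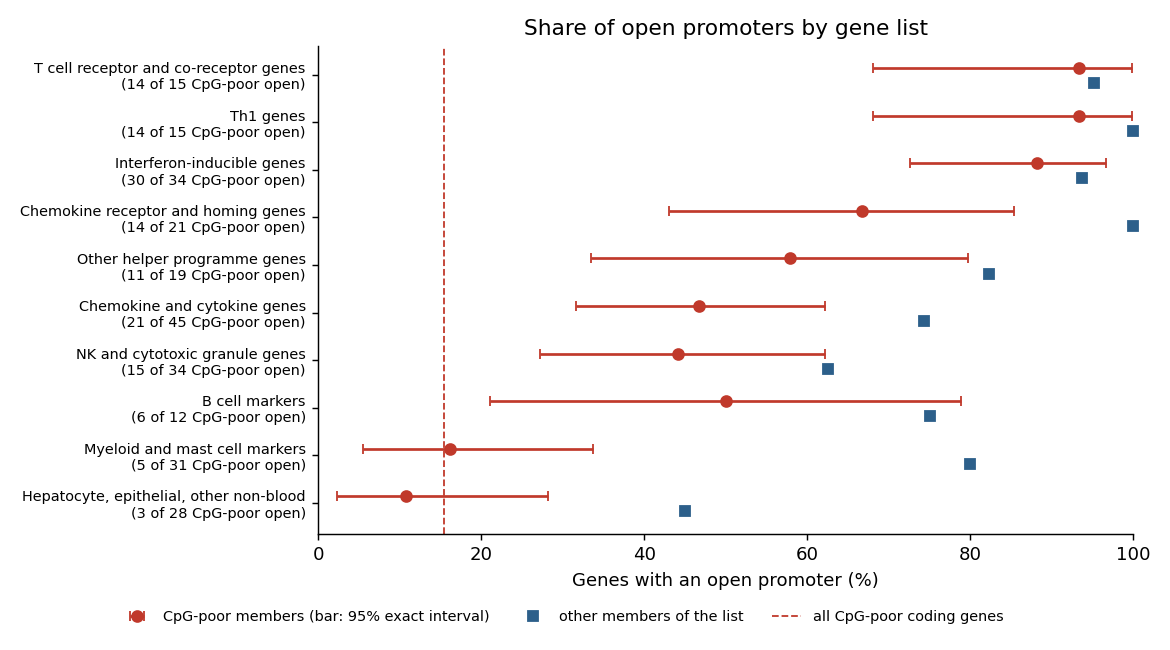
Percent of genes with an open promoter by gene list, for CpG-poor members (red circles, bars showing 95% exact intervals over genes) and the other members of the list (blue squares). The dashed line marks the 15.5% of all CpG-poor coding genes, and the CpG-poor shares run between 10.7% for markers of non-blood tissues and 93.3% for the T cell receptor and the Th1 lists.

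Gene families found by symbol ranged widely, beside the 15.5% of all CpG-poor genes with an open promoter (24.3% without sensory receptor and predicted genes). Of 15 CpG-poor genes of the guanylate-binding, immunity-related and Gimap GTPases 13 had an open promoter (86.7%), of 10 genes of the p200 family 7 did, of 6 Schlafens 4, of 20 interleukins 11, and of 48 genes with a CD symbol 26. Of 1075 CpG-poor olfactory receptor genes 30 had an open promoter (2.79%), of 327 vomeronasal receptor genes 1, of 68 keratin genes 1, and of 74 cytochrome P450 genes 8 (10.8%). None of 35 bitter taste receptor genes, 36 late cornified envelope and small proline-rich genes or 27 prolactin family genes had one. The 3 olfactory receptor genes with the strongest regions were Olfr457 (14.955 in replicate 1, 17.0 in replicate 2), Olfr552 (13.9 and 12.8) and Olfr642 (11.1 and 12.2), in the same order, and in 11 of the 30 the strongest region covered a start. The strongest Trim genes were Trim12c, Trim21 (17.6 in replicate 1, 14.5 in replicate 2), a receptor for antibody in the cytosol, and Trim30c (15.3 and 14.97). The strongest C-type lectin genes were Klrb1c, Clec2h (16.2 in replicate 1, 14.6 in replicate 2) and Clec2i (11.6 and 11.9). Members of clustered families such as these have close copies, and how reads that match several copies were treated is not given in the sources used here.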

How the data were processed

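ATAC-seq region lists of 2 biological replicates of mouse Th1 cells (1 group) were used, 1 list per replicate, on mm10 per the labels. The authors deposited 98875 regions for replicate 1 and 91488 for replicate 2. Each deposited region has a signal value (enrichment as the authors' caller gave it, of unstated reference), −log10 p and −log10 q by the authors (q up to 0.1), a display score by the authors that was not used, and a summit. The aligner, the caller, their versions and the read depth were not given in the sources used here, so no precision from depth can be stated, and a weak region can be missed in a shallower library. Regions off chromosomes 1 to 19, X and Y were left out (89 and 85, for replicates 1 and 2).

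Overlapping regions of the lists were joined into shared regions, and each shared region keeps, for each replicate, the strongest value of its regions. Starts came from GENCODE M21 and sequence from GRCm38.p6 (Python 3.11.15, numpy 2.4.6, pandas 2.3.3, scipy 1.17.1). Steps were tested on simulated regions. Genes are counted by Ensembl identifier. With 1 group of 2 replicates no test between conditions exists, and differences between gene classes are given as counts with exact intervals. The replicates' spread may be technical.

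Members, 10 gene lists, 34 symbol families and 20 motifs were chosen with earlier results of these data known. Genes named are, by rule, the 15 highest by signal, 10 by −log10 q, 5 widest, 5 weakest, those with several regions, 5 on either side of the threshold, list members, 3 per family, and the 5 strongest regions of 1 replicate. Alternatives varied the distance, starts, CpG window, threshold, overlap and −log10 q, and left out each replicate. Some list members and 1 sequence are not reported here.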

Additional observations from a re-analysis of the deposited data

How the results depend on the processing

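No paired analysis was possible because there is 1 group. In all 16 alternatives the share of CpG-poor genes with an open promoter was below that of other coding genes. With 1 replicate left out, the share was 15.8 to 16.8% for CpG-poor and 84.9 to 85.4% for other genes, the median width 685.0 to 724.5 bp and 1136 to 1159 bp, and the share of CpG-poor promoter regions over a start 49.8 to 51.7%, against 15.5%, 84.4%, 818 bp, 1237 bp and 53.9% with both. The median signal was then 6.09 (CpG-poor) and 9.31 (other) for replicate 1 alone and 6.16 (CpG-poor) and 9.34 (other) for replicate 2 alone.

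In what follows values are given for CpG-poor and then other coding genes or regions, and signals for replicate 1 and then replicate 2. Within 500 bp the shares open were 12.5% and 83.5%, the CpG-poor signal in replicate 1 6.92, the other signals 10.1 and 10.01, the other width 1280.0 bp, and 71.3% of CpG-poor regions covered a start. Within 2.5 kb the shares were 22.1% and 86.3% with 1792 CpG-poor regions, widths of 776 and 1105 bp, a CpG-poor signal of 6.51 in replicate 1, other signals of 8.60 and 8.41, and 32.4% over a start. Requiring a region over a start gave 9.31% and 81.3%, with 548 genes and 581 regions (100% over a start by construction), widths of 916 and 1326 bp, CpG-poor signals of 7.25 and 6.88 and other signals of 10.6 and 10.4. With starts of coding transcripts only, widths were 852 and 1308 bp, the CpG-poor signal in replicate 1 6.91, and the other signals 10.4 and 10.2.

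At a threshold of 0.25 the shares were 12.2% and 81.4%, with 602 genes and 698 regions. At 0.35 they were 18.6% and 86.9%, with a CpG-poor width of 859 bp and 57.6% over a start. With CpG counted within 200 bp they were 14.3% and 82.4%. With the highest of sliding windows of 200 bp, which leaves 1287 CpG-poor genes, they were 7.46% and 69.5%, with 96 genes, 101 regions, 43.6% over a start, a width of 1217 bp for other regions, CpG-poor signals of 7.51 and 6.95 and other signals of 9.56 and 9.37. Keeping regions with −log10 q of at least 5 gave 14.5% and 83.2%, an other width of 1257 bp, CpG-poor signals of 7.11 and 6.76 and other signals of 10.002 and 9.85. On autosomes the other share was 85.5%. A stricter overlap gave 15.4% and 84.3%, with 904 genes and 1067 regions. Leaving out regions near CpG-richer starts gave 14.7% and 84.4%, with 866 genes, 1021 regions and 55.4% over a start. In both alternatives the median widths and signals moved by less than the replicates' spread.

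Among alternatives chosen after seeing the data, leaving out sensory receptor and predicted genes gave 24.3% and 86.2%, with 57.005% over a start. Genes with 1 start gave 9.91% and 65.5%, with 254 genes, 263 regions, an other width of 1323 bp, a CpG-poor signal of 5.99 in replicate 2 and 42.2% over a start. Reads per library are not in the lists, so what depth adds or hides near the calling threshold was not tested.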
